A study of Mus musculus with 8 samples.

Results

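Protein kinase A is the main intracellular receptor of cyclic AMP, and its subunits are encoded in the mouse by 6 genes listed in the deposited gene table: the catalytic subunit genes Prkaca and Prkacb, the type I regulatory subunit genes Prkar1a and Prkar1b, and the type II regulatory subunit genes Prkar2a and Prkar2b. All rows carrying these gene names were taken, which gave 6 of 13130 genes and 19 of 24526 transcripts. The tissue was orbital frontal cortex, taken from mice on a C57BL/6 background at an age of 12 weeks. The knockdown group of 4 libraries is labelled sh-circHomer1/sh-Homer1b, short hairpin RNAs against a circular RNA and the long Homer1b isoform of the Homer1 gene, and the control group of 4 libraries is labelled sh-scramble, a hairpin with a scrambled sequence. The labels do not say whether a knockdown library received one hairpin or both, nor how they were delivered, nor whether each library came from a separate animal. The p-values below therefore measure the spread between these libraries, which may be technical. The 6 genes were selected with their gene and transcript values in both groups already in view, so their differences between the groups are given as a description without a test.

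In the absence of cyclic AMP, a dimer of regulatory subunits binds catalytic subunits and holds them inactive. Binding of cyclic AMP to the regulatory subunits frees the catalytic subunits, which phosphorylate ion channels, receptors and transcription factors such as CREB. Type II holoenzymes are mostly held at membranes and synapses by A-kinase anchoring proteins, type I holoenzymes are found largely in the cytosol, and RIIβ, the product of Prkar2b, is an abundant regulatory subunit of striatal neurons.

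Values are FPKM (fragments per kilobase of exon, scaled to library size) as deposited, and the depth of the libraries is unknown, since neither counts nor totals are given. Differences are on the scale of log2(FPKM + 1), knockdown minus control, with the standard error (SE) of a limma fit over all genes or all transcripts. Homer1, the targeted gene, had 18.9, 16.5, 16.6 and 19.3 FPKM in knockdown replicates 1 to 4, against 23.5, 26.3, 21.3 and 18.9 FPKM in control replicates 1 to 4. Control replicate 4 thus lay among the knockdown libraries, and a gene value does not measure the circular RNA. Cortical excitatory neuron markers, 11 in all, summed to 498 to 616 FPKM in knockdown libraries and 478 to 599 FPKM in control libraries. Markers of other tissue varied more: all 18 striatal projection neuron markers had a lower mean in the knockdown group, with sums of 186 to 486 FPKM in knockdown libraries and 234 to 808 FPKM in control libraries. All 16 oligodendrocyte and myelin markers were also lower on average, with sums of 686 to 1373 FPKM in knockdown libraries and 1010 to 1275 FPKM in control libraries. Knockdown replicate 4 stood apart in olfactory bulb markers, whose 4 listed members summed to 28.4 FPKM there, where the other 3 knockdown libraries had 3.07 to 3.71 FPKM and control libraries had 2.95 to 3.42 FPKM. Eomes, one of these markers, was listed at 0 in control replicate 2. Among the remaining lists, the knockdown mean was the higher one for 9 of 10 astrocyte, 7 of 10 microglial, 5 of 10 endothelial and 4 of 8 GABA interneuron markers. In such bulk tissue, fewer cells of a type and less RNA per cell cannot be told apart.

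Across all 8 libraries the regulatory type I genes were the most abundant and the type II genes the least. Mean levels were 162 FPKM for Prkar1b, 147 FPKM for Prkar1a, 70.4 FPKM for Prkaca, 48.8 FPKM for Prkacb, 9.92 FPKM for Prkar2a and 8.87 FPKM for Prkar2b. The order Prkar1a above Prkaca, Prkaca above Prkacb and Prkacb above Prkar2a held in each of the 8 libraries of the gene table. At the ends of that order the neighbours were not separated by the spread: Prkar1b exceeded Prkar1a in 3 knockdown and 3 control libraries, and Prkar2a exceeded Prkar2b in 4 knockdown and 2 control libraries. Each gene value equals the fragments of all transcripts over the length of the gene's merged exons, so it lies below the sum of the transcript values, by a factor of 2.13 to 2.18 for Prkacb and of 1.09 for Prkaca. The order depends on this choice. With the listed transcripts summed, Prkacb exceeded Prkaca in all 8 libraries (means of 105 FPKM and 76.8 FPKM), and Prkar1b exceeded Prkar1a and Prkar2a exceeded Prkar2b in all 8.

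**Figure D1:**
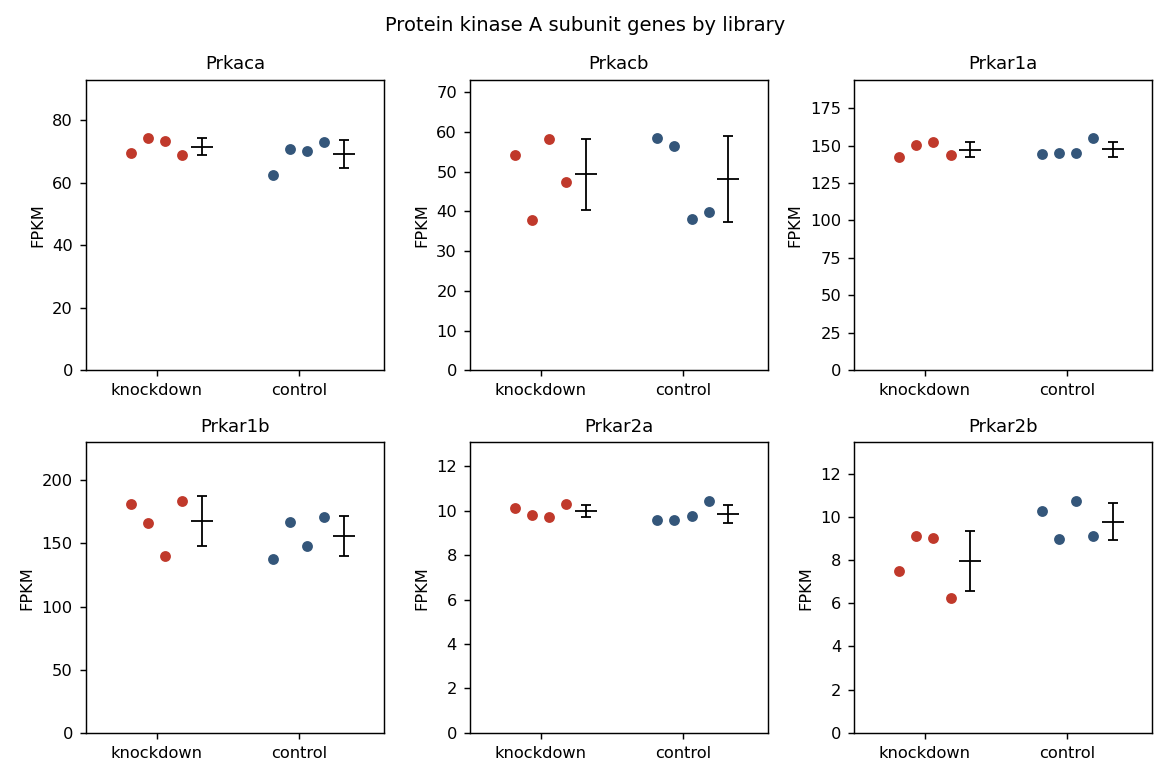
FPKM of the 6 subunit genes in each library, with knockdown libraries left of control libraries, one panel per gene and a vertical axis that starts at 0. Points are libraries in order of replicate number, horizontal marks are group means and bars are 1 SD (n = 4). The groups overlap in every panel, and Prkar2b shows the widest offset, with means of 7.96 in knockdown and 9.78 in control libraries.

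Prkaca encodes Cα, the catalytic subunit found in most tissues. Its gene lies at chr8:83972993-83996443 on the plus strand (GRCm38). Prkaca had 69.5, 74.4, 73.5 and 69.0 FPKM in knockdown replicates 1 to 4, against 62.6, 70.9, 70.0 and 73.0 FPKM in control replicates 1 to 4. The groups overlapped, and their means were 71.6 ± 2.72 FPKM in the knockdown group and 69.2 ± 4.52 FPKM in the control group (SD, n = 4 each). The log2 difference was 0.05 (SE 0.06). A single transcript was listed, Prkaca-201, with 10 exons and 351 codons, and it had 78.1 ± 3.0 FPKM in the knockdown group and 75.4 ± 4.96 FPKM in the control group.

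Prkacb encodes Cβ, a catalytic subunit that is made in several forms with different amino-terminal ends, some of them typical of neurons. The gene lies at chr3:146729574-146812990 on the minus strand. Of the 5 listed transcripts, 4 have 10 exons each, of which 8 are identical in all 4. They begin at different first exons, and the coding bases of these exons are shown because they are what tells the forms apart. Capitals mark the start codon, and the sequences are those of the GENCODE M21 transcripts (GRCm38).
Prkacb-201, chr3:146781147-146781333, minus strand: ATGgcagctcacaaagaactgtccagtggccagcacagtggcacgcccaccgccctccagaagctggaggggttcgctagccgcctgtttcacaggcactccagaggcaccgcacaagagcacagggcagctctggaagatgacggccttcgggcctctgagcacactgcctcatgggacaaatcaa
Prkacb-202, chr3:146812638-146812683, minus strand: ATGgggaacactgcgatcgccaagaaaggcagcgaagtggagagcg
Prkacb-204, chr3:146770516-146770525, minus strand: ATGggcttgt
The first exon of Prkacb-203 holds 7 coding bases. The annotated proteins are 398 codons long for Prkacb-201, 351 for Prkacb-202, 338 for Prkacb-203 and 339 for Prkacb-204, and Prkacb-208 is an incomplete model.

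At the gene level Prkacb was the most variable member, with a coefficient of variation of 18.8% over the 8 libraries. This compares with 16.2% for Prkar2b, 11.1% for Prkar1b and 5.26% for Prkaca. Prkacb had 54.1, 37.8, 58.2 and 47.5 FPKM in knockdown replicates 1 to 4, against 58.5, 56.6, 38.0 and 39.8 FPKM in control replicates 1 to 4. Low and high libraries occurred in both groups, and the means were 49.4 ± 8.90 FPKM in the knockdown group and 48.2 ± 10.8 FPKM in the control group (SD, n = 4 each). The log2 difference was 0.04 (SE 0.18).

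The transcripts showed where this variation lay. Prkacb-201, the most abundant, had 63.8, 56.4, 58.1 and 54.6 FPKM in the knockdown libraries, against 59.5, 47.4, 55.6 and 59.7 FPKM in the control libraries, a narrow range with overlapping groups. Prkacb-202 had 31.3, 15.0, 32.9 and 32.9 FPKM in the knockdown libraries, against 35.9, 38.6, 14.1 and 13.3 FPKM in the control libraries. Its values thus formed a high and a low set, the low one holding knockdown replicate 2 and control replicates 3 and 4. Prkacb-203 had 14.5, 6.85, 24.2 and 9.98 FPKM in the knockdown libraries, against 20.7, 24.3, 8.01 and 9.03 FPKM in the control libraries. Prkacb-204 had 5.98, 2.89, 8.87 and 3.26 FPKM in the knockdown libraries, against 8.50, 9.80, 3.90 and 3.72 FPKM in the control libraries. In the 3 libraries in which Prkacb-202 was low, and in knockdown replicate 4, Prkacb-203 stayed at or below 9.98 FPKM and Prkacb-204 at or below 3.90 FPKM.

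After the mean of each group was subtracted, Prkacb-202 correlated with Prkacb-203 at a Pearson r of 0.88 and with Prkacb-204 at 0.82, and Prkacb-203 correlated with Prkacb-204 at 0.98, over the 8 libraries. The r of Prkacb-201 with these 3 lay between -0.28 and -0.12. These coefficients are descriptions: the transcripts share library, depth and 8 exons, and fragments from shared exons are divided among them by the authors' transcript estimation. By length-scaled values (FPKM times transcript length), Prkacb-201 carried 55.1 ± 9.49% of the Prkacb fragments in the knockdown group and 55.0 ± 15.1% in the control group (SD, n = 4 each).

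**Figure D2:**
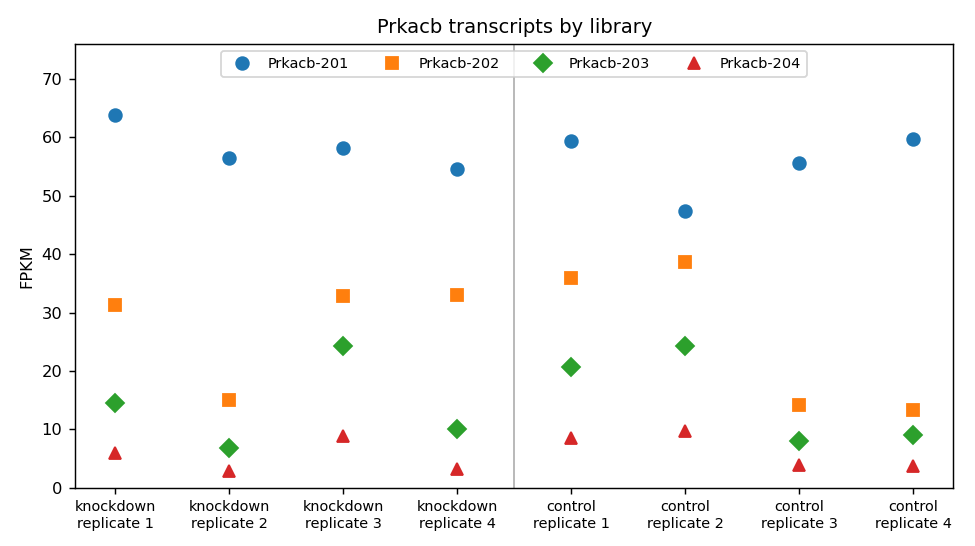
FPKM of the 4 complete Prkacb transcripts in each library, with the 4 knockdown libraries left of the vertical line and the 4 control libraries right of it. Prkacb-201 stays between 47.4 and 63.8, while Prkacb-202, Prkacb-203 and Prkacb-204 are all low in knockdown replicate 2 and in control replicates 3 and 4, and the last 2 of them also in knockdown replicate 4.

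The windows at these starts differ in composition. The 250 bases before 3 RefSeq starts of Prkacb (GRCm38.p6, minus strand) are printed because each reaches the first base of a listed transcript. The last 14 bases of the first window lie inside Prkacb-202 and the last 23 bases of the third inside Prkacb-203. Capitals mark the core of the cyclic AMP response element, TGACG or its reverse complement CGTCA.
Window at the start of Prkacb-202, chr3:146812947-146813196: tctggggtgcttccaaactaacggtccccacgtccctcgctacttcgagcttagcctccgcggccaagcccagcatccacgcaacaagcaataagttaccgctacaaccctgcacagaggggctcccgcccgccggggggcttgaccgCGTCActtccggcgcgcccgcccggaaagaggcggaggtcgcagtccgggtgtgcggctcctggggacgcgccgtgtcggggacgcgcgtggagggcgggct
Window at the start of Prkacb-201, chr3:146781417-146781666: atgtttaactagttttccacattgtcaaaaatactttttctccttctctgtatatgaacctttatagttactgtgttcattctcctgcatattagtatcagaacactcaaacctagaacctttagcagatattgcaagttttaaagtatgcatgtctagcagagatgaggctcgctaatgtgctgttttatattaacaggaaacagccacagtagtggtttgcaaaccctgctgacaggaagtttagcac
Window at the start of Prkacb-203, chr3:146770239-146770488: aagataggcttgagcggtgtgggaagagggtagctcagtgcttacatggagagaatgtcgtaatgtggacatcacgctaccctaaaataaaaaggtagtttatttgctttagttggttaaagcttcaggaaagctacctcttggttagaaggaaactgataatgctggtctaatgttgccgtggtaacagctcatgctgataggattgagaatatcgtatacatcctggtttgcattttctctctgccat
GC content was 69.2% in the window of Prkacb-202, 36.8% in that of Prkacb-201 and 42% in that of Prkacb-203. The window of Prkacb-202 held 1 core and the others held none of these letters. Over all 6 subunit genes RefSeq gives 19 such windows, of which 6, in 4 genes, held a core on either strand. Of these, 1, of Prkar1a, held the full element TGACGTCA, which contains the core on both strands. The windows are not all distinct: those of Prkar1a at chr11:109650612-109650861 and chr11:109650699-109650948 overlap and share a core. Among all 32851 windows, 17.8% held a core and 1.55% the full element.

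Prkar1a encodes RIα, the widely expressed type I regulatory subunit that binds catalytic subunits left free by loss of other regulatory subunits. The gene lies at chr11:109649405-109669656 on the plus strand. Prkar1a had 142, 150, 152 and 144 FPKM in knockdown replicates 1 to 4, against 145, 145, 145 and 155 FPKM in control replicates 1 to 4. It was the steadiest member, with a coefficient of variation of 3.16% against 3.32% for Prkar2a, and its highest library was control replicate 4. The means were 147 ± 4.93 FPKM in the knockdown group and 147 ± 5.14 FPKM in the control group (SD, n = 4 each), with a log2 difference of -0.0024 (SE 0.04). Its 3 listed transcripts overlapped between the groups. Prkar1a-201 had 165 ± 6.90 FPKM in the knockdown group and 164 ± 7.12 FPKM in the control group, and Prkar1a-203, which also encodes 381 codons, had 21.2 ± 4.19 FPKM in the knockdown group and 22.3 ± 1.72 FPKM in the control group. Prkar1a-202, of 171 codons, ranged from 5.86 to 9.64 FPKM over all libraries.

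Prkar1b encodes RIβ, a type I regulatory subunit found mainly in neurons. The gene lies at chr5:139017306-139150001 on the minus strand, and 341 of its 3810 exonic bases are shared with the non-coding gene Gm15672 on the same strand. Prkar1b had 181, 166, 140 and 184 FPKM in knockdown replicates 1 to 4, against 138, 167, 148 and 171 FPKM in control replicates 1 to 4. The 2 highest libraries were knockdown replicates 4 and 1 and the lowest was control replicate 1, but the groups overlapped. The means were 168 ± 20.0 FPKM in the knockdown group and 156 ± 15.8 FPKM in the control group (SD, n = 4 each). The log2 difference was 0.10 (SE 0.10). With the striatal marker score described below as a covariate the sign was reversed, at -0.05 (SE 0.07), and leaving out 1 library gave 0.05 to 0.19.

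Most Prkar1b signal was assigned to a transcript with a shortened reading frame. Prkar1b-202, whose annotated frame has 257 codons, had 221 ± 30.8 FPKM in the knockdown group and 200 ± 19.0 FPKM in the control group, and Prkar1b-201, with the frame of 381 codons, had 13.4 ± 1.37 FPKM in the knockdown group and 11.7 ± 2.65 FPKM in the control group (SD, n = 4 each). Prkar1b-204, a model of 234 codons that is incomplete, had 73.2, 66.6, 59.6 and 63.3 FPKM in knockdown replicates 1 to 4, against 69.1, 79.5, 72.4 and 86.8 FPKM in control replicates 1 to 4. Only knockdown replicate 1 reached the control range, and the log2 difference was -0.22 (SE 0.09). As a share of the length-scaled Prkar1b values, Prkar1b-204 made up 9.77%, 9.68%, 10.3% and 8.30% in the knockdown libraries, against 12.1%, 11.5%, 11.8% and 12.2% in the control libraries. The 2 groups of shares did not overlap, while the share of Prkar1b-202 was 84.8 ± 1.98% in the knockdown group and 82.9 ± 0.83% in the control group, with overlap. How often such shares separate over all transcripts was not counted, so nothing is read from the Prkar1b-204 share. Prkar1b-206, a short model of 85 codons, stayed between 0.596 and 0.835 FPKM.

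Prkar2a encodes RIIα, a widely expressed type II regulatory subunit that binds A-kinase anchoring proteins. The gene lies at chr9:108689314-108750436 on the plus strand. Prkar2a had 10.1, 9.82, 9.73 and 10.3 FPKM in knockdown replicates 1 to 4, against 9.59, 9.59, 9.77 and 10.5 FPKM in control replicates 1 to 4. The groups overlapped, with means of 9.99 ± 0.262 FPKM in the knockdown group and 9.85 ± 0.413 FPKM in the control group (SD, n = 4 each). The log2 difference was 0.02 (SE 0.05), whereas it was -0.22 with the sum of the 3 listed transcripts as the gene value and -0.03 after adjustment for the striatal score. That sum includes Prkar2a-202 and Prkar2a-206, which are listed through the control group alone, as described below, so the -0.22 partly restates that selection.

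Within Prkar2a, the 2 minor transcripts were lower in every knockdown library than in any control library. Both differ from Prkar2a-201 at exon 9 of its 11 exons, which is shown for that reason (GENCODE M21, GRCm38, plus strand). Prkar2a-202 also begins further downstream, at base 108716873 against 108692143 for Prkar2a-201, and has 7 exons and 599 bases. The 66 bases of exon 9 encode 22 codons and are absent from Prkar2a-206. Capitals mark the 34 bases of it with which Prkar2a-202, an incomplete model, ends.
Prkar2a exon 9, chr9:108744230-108744295: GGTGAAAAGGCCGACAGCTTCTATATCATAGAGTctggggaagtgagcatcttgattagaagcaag
Prkar2a-206, of 380 codons, had 0.234 and 0.114 FPKM in knockdown replicates 1 and 2 and was listed at 0 in knockdown replicates 3 and 4, against 1.30, 0.997, 1.23 and 1.27 FPKM in control replicates 1 to 4. Prkar2a-202 had 0.314, 0.385, 0.256 and 0.275 FPKM in the knockdown libraries, against 3.12, 1.24, 1.21 and 3.23 FPKM in the control libraries. Neither transcript overlapped between the groups. The log2 differences were -1.02 (SE 0.11) for Prkar2a-206 and -1.22 (SE 0.25) for Prkar2a-202, and with a pseudocount of 0.1 FPKM in place of 1 FPKM they were -2.98 and -2.36.

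Prkar2a-201, of 402 codons, had 12.9, 12.5, 12.4 and 13.2 FPKM in the knockdown libraries, against 11.6, 11.9, 12.1 and 12.7 FPKM in the control libraries. These groups overlapped, with a log2 difference of 0.07 (SE 0.05). Prkar2a-201 held 99.6 ± 0.23% of the length-scaled Prkar2a values in the knockdown group and 95.7 ± 1.20% in the control group (SD, n = 4 each), without overlap. In the deposited transcript table no row had both group means below 0.5 FPKM, and Prkar2a-202 and Prkar2a-206 were the 2 of 19 subunit transcripts whose other mean lay below that value. They are thus listed through the control group alone. The share of Prkar2a-201 is what these transcripts leave, so its lack of overlap restates their difference and is not a separate result.

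**Figure D3:**
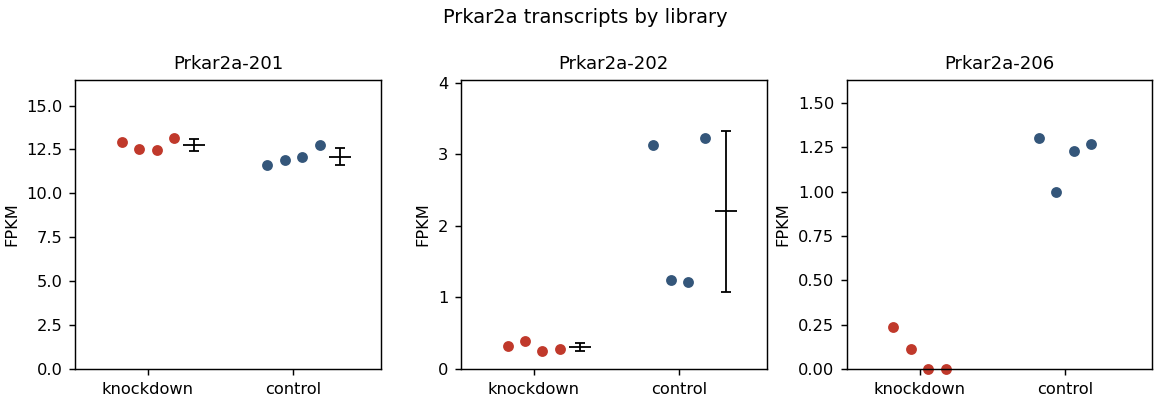
FPKM of the 3 listed Prkar2a transcripts in each library, knockdown left of control, with a vertical axis that starts at 0 and differs between panels. Points are libraries, and horizontal marks and bars are group means and 1 SD (n = 4), left out for Prkar2a-206, which is listed at 0 in 2 knockdown libraries. Prkar2a-202 and Prkar2a-206 have every knockdown library below every control library, and Prkar2a-201 overlaps.

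Prkar2b encodes RIIβ. The gene lies at chr12:31958476-32061296 on the minus strand. Prkar2b had 7.49, 9.09, 9.02 and 6.23 FPKM in knockdown replicates 1 to 4, against 10.3, 8.97, 10.8 and 9.12 FPKM in control replicates 1 to 4. Knockdown replicates 4 and 1 lay below all control libraries, while knockdown replicates 2 and 3 lay just above control replicate 2. The means were 7.96 ± 1.37 FPKM in the knockdown group and 9.78 ± 0.869 FPKM in the control group (SD, n = 4 each). The log2 difference was -0.28 (SE 0.11). Without knockdown replicate 4, the library with olfactory bulb markers, the difference was -0.18, and it was -0.12 once the striatal marker score entered the fit as a covariate (SE 0.09).

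The 3 Prkar2b transcripts did not divide in the same way in all libraries. Prkar2b-201 had 0.620, 1.04, 0.735 and 0.562 FPKM in the knockdown libraries, against 1.09, 2.66, 1.10 and 1.08 FPKM in the control libraries. The groups did not overlap, and the log2 difference was -0.48 (SE 0.21) with all libraries and -0.27 without control replicate 2. Prkar2b-203, whose frame has 256 codons against 416 in the other 2, had 4.04, 4.92, 3.24 and 3.79 FPKM in the knockdown libraries, against 6.63, 0, 6.42 and 6.05 FPKM in the control libraries. Control replicate 2, listed at 0 for Prkar2b-203, had the highest values of Prkar2b-201 and of Prkar2b-202, which stood at 8.39 FPKM there and at 2.94 to 6.38 FPKM in the other 7 libraries. In control replicate 2 the gene value of Prkar2b was 8.97 FPKM, close to that of control replicate 4.

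An unadjusted limma p under 0.05 was reached by 14.2% of all 13004 genes and 7.96% of all 23415 transcripts tested. No such call is given for the subunits, which were chosen on this contrast. The groups did not overlap for 0 of 6 genes and for 3 of 19 transcripts, Prkar2a-202, Prkar2a-206 and Prkar2b-201, all lower in the knockdown group. Over all rows tested this was so for 9.15% of genes and 5.7% of transcripts in either direction, and for 2.66% of transcripts in the lower direction. At a Benjamini-Hochberg adjusted limma p of 0.05, 0% of all genes and 0.0256% of all transcripts passed. The median log2 difference was 0.03 over the 6 genes and 0.01 over all genes. Prkar2a-202 and Prkar2a-206 are listed through the control group alone, which favours a lower knockdown value for both. For this reason, and because the members were chosen on this contrast, nothing is read from these counts.

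The balance between subunits was compared as ratios within each library. The summed regulatory level was 2.77 ± 0.287 times the summed catalytic level in the knockdown group and 2.76 ± 0.266 times in the control group (SD, n = 4 each). Prkacb made up 40.6 ± 4.86% of the catalytic FPKM in the knockdown group and 40.8 ± 6.61% in the control group by the gene table. By summed transcripts it made up 57.3 ± 4.92% in the knockdown group and 57.4 ± 6.47% in the control group. The gene value of Prkacb is divided by 8772 merged exonic bases, while its complete transcripts are 3999 to 4347 bases long. Its place below Prkaca in the gene table comes from this longer length, against 2488 merged bases for Prkaca. Prkar1b made up 53.1 ± 3.87% of the type I FPKM in the knockdown group and 51.3 ± 2.08% in the control group. Type II genes made up 5.41 ± 0.535% of the regulatory FPKM in the knockdown group and 6.10 ± 0.534% in the control group, and Prkar2b made up 44.1 ± 5.01% of the type II FPKM in the knockdown group and 49.7 ± 2.76% in the control group. By summed transcripts the shares were 60.6 ± 3.49% in the knockdown group and 59.7 ± 1.98% in the control group for Prkar1b, and 41.1 ± 4.81% in the knockdown group and 43.0 ± 3.30% in the control group for Prkar2b. The type II share by summed transcripts was 4.35 ± 0.429% in the knockdown group and 5.34 ± 0.488% in the control group. Its groups overlapped narrowly, through knockdown replicate 3 at 4.83% and control replicate 2 at 4.81%. The summed Prkar2a value includes Prkar2a-202 and Prkar2a-206, which are listed through the control group alone. The Prkar2b and type II shares by summed transcripts thus partly restate that selection. All 5 measures overlapped between the groups by either table, and they compare RNA levels, not proteins.

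The subunit genes were also set against the amount of striatal marker RNA in each library. The coefficients are given as a description, with no p-value, because the genes and marker lists were chosen with these values in view and the score itself differs between the groups. The striatal score, the mean over 18 markers of log2(FPKM + 1) centred on each marker's mean, was -0.72, 0.02, 0.31 and -1.08 in knockdown replicates 1 to 4 and 0.96, 0.38, 0.80 and -0.67 in control replicates 1 to 4. Prkar2b was higher where the score was higher, with a Pearson r of 0.87 and a Spearman rho of 0.74 over 8 libraries. Prkar1b was lower where the score was higher, with r of -0.88 and rho of -0.88. Prkar2a was also lower there, with r of -0.89 and rho of -0.81.

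After each group's mean was subtracted, which removes the difference between the groups, r was 0.81 for Prkar2b, -0.87 for Prkar1b and -0.93 for Prkar2a. Leaving out the 2 libraries farthest from the median score, knockdown replicates 4 and 1, gave r of 0.69 for Prkar2b, -0.76 for Prkar1b and -0.86 for Prkar2a. Without knockdown replicate 4 alone r was 0.81 for Prkar2b, -0.84 for Prkar1b and -0.87 for Prkar2a. The coefficient of Prkar2a rests on the gene table, since the sum of its transcripts gave an r of 0.12. The remaining genes gave r of -0.33 for Prkaca, 0.17 for Prkacb and -0.06 for Prkar1a. Once the 2 farthest libraries were left out, r was -0.70 for Prkaca, 0.43 for Prkacb and -0.88 for Prkar1a. Without control replicate 1 alone, r was 0.27 for Prkaca. Myelin markers moved partly with the same libraries, with scores of -0.39, 0.22, 0.35 and -0.60 in knockdown replicates 1 to 4 and 0.16, -0.10, 0.27 and 0.09 in control replicates 1 to 4, and their part in these values was not tested.

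**Figure D4:**
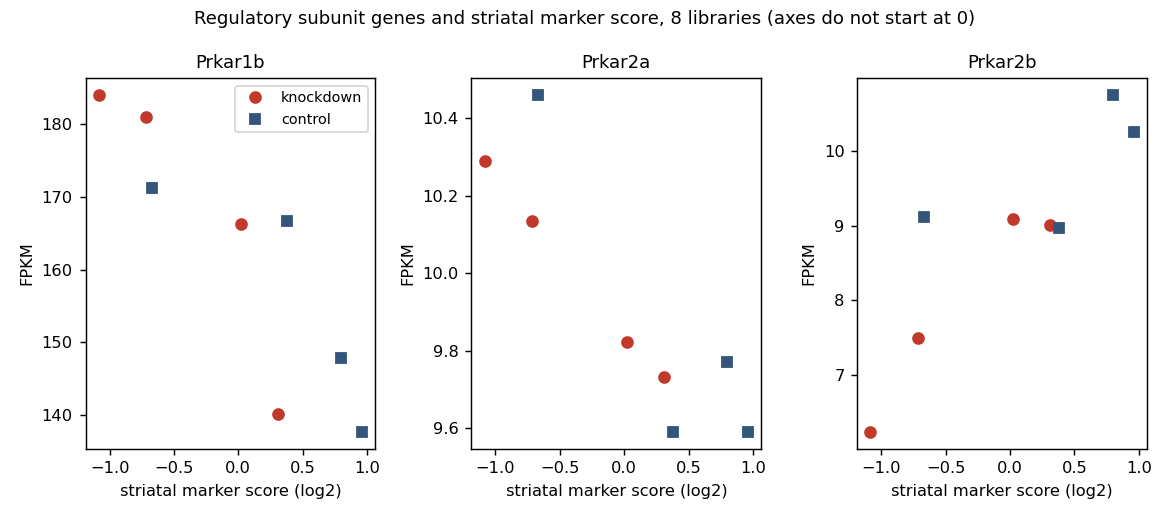
FPKM of Prkar1b, Prkar2a and Prkar2b against the striatal marker score (mean centred log2 level of 18 markers) in 8 libraries, with knockdown libraries as circles and control libraries as squares, on axes that do not start at 0. Prkar1b and Prkar2a decrease and Prkar2b increases with the score, with r of -0.88, -0.89 and 0.87.

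Among themselves, with group means subtracted, Prkar1b and Prkar2b ran opposite to each other over the 8 libraries (r of -0.77), as did Prkar2a and Prkar2b (-0.60), while Prkar1b and Prkar2a ran together (0.69), as did Prkaca and Prkar1a (0.69). The genes whose pattern was most like that of each member were sought by the same measure among 11932 genes with a mean of at least 1 FPKM. For Prkar2b these were Ankrd28, St18 and Map7, with r of 0.99 each, of which St18 encodes a zinc finger factor and Map7 a microtubule-associated protein. For Prkar1b they were the cyclin-dependent kinase gene Cdk16, the bZIP factor gene Jdp2 and Olfm2, with r of 0.99 each. For Prkar2a they were Rnf180, Mars and Rae1, with r of 0.97 each, and for Prkaca they were Npas1 at 0.99 and Pomt2 and Ebf4 at 0.97. For Prkacb they were Vps37a at 0.99 and Zfp169 and Cdkn2c at 0.96, and for Prkar1a they were Clp1 at 0.99 and Tmem132c and Col23a1 at 0.98. With 8 libraries and this many genes compared, coefficients of this size are a ranking only.

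Genes that act around the kinase were examined as 7 lists with 83 genes, of which 76 were in the table and tested. None passed an adjusted limma p of 0.05, and 17 were under an unadjusted p of 0.05, 10 higher and 7 lower in the knockdown group. Of all genes tested, 9.1% were higher and 5.07% lower by that rule. The numbers of higher and lower means were 38 and 38, and the median log2 difference was -0.00029. The 17 became 7 once the striatal score was a covariate, and without knockdown replicate 4 they became 9. The count over all genes fell too, from 1842 to 1081 with the covariate and to 1420 without that library. Whether the lists fell by more than all genes did was not tested. Adjusted p-values below are limma's over all genes.

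Among the inhibitors and turnover factors, 1 gene was higher and 1 lower by unadjusted p, of 4 tested. Pja2, a ubiquitin ligase that degrades regulatory subunits, had 129, 132, 125 and 108 FPKM in knockdown replicates 1 to 4, against 152, 142, 144 and 145 FPKM in control replicates 1 to 4. The groups did not overlap, and the log2 difference was -0.24 (limma adjusted p = 0.266, lower than the control mean in 4 of 4 knockdown libraries). Pkig, a protein inhibitor of the catalytic subunit, had 7.87 ± 0.446 FPKM in the knockdown group and 6.80 ± 0.698 FPKM in the control group (limma adjusted p = 0.316).

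Of 21 A-kinase anchoring proteins, which tether the holoenzyme, 1 was higher and 5 were lower by unadjusted p, with a median log2 difference of -0.04. Akap2 had 4.58, 4.01, 5.19 and 4.31 FPKM in knockdown replicates 1 to 4, against 8.71, 5.40, 9.68 and 11.1 FPKM in control replicates 1 to 4. The groups did not overlap, and the log2 difference was -0.78 (SE 0.18, limma adjusted p = 0.266). Pakap is named here after its values were seen, because it is annotated over the same locus. Its values were 2.02, 1.56, 4.00 and 1.18 FPKM in the knockdown libraries, against 0.810, 4.11, 0.999 and 0.951 FPKM in the control libraries. Among the controls, Pakap was highest and Akap2 lowest in replicate 2. Among the knockdown libraries, both were highest in replicate 3. How fragments were divided between Akap2 and Pakap is uncertain. Akap10 had 3.87 ± 0.402 FPKM in the knockdown group and 4.55 ± 0.112 FPKM in the control group, without overlap (limma adjusted p = 0.291).

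Of the 9 adenylyl cyclases, which make cyclic AMP, 1 was higher by unadjusted p. This was Adcy8, a calcium-stimulated cyclase, with 2.40, 1.51, 2.30 and 1.90 FPKM in knockdown replicates 1 to 4, against 1.39, 1.30, 1.44 and 1.34 FPKM in control replicates 1 to 4, groups that did not overlap (log2 difference 0.34, limma adjusted p = 0.266). Adcy9 had 9.64 ± 2.10 FPKM in the knockdown group and 11.8 ± 0.89 FPKM in the control group (log2 difference -0.29, limma adjusted p = 0.402), and its difference was -0.13 without knockdown replicate 4. Of the 7 G protein alpha subunits, 1 was higher by unadjusted p. Gnai2, an inhibitor of cyclases, had 32.5 ± 1.98 FPKM in the knockdown group and 27.6 ± 0.372 FPKM in the control group (SD, n = 4 each), without overlap (log2 difference 0.22, limma adjusted p = 0.266). Gnal, the stimulatory alpha subunit of striatal and olfactory neurons, had 39.7 ± 7.31 FPKM in the knockdown group and 55.6 ± 15.7 FPKM in the control group (log2 difference -0.45, limma adjusted p = 0.388). The log2 difference of Gnal was -0.08 once the striatal score was a covariate.

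Of 14 phosphodiesterases, which break down cyclic AMP, 1 was lower by unadjusted p. Pde10a, the phosphodiesterase abundant in striatal projection neurons, had 7.23, 16.9, 9.66 and 4.79 FPKM in knockdown replicates 1 to 4, against 47.5, 28.4, 40.1 and 13.7 FPKM in control replicates 1 to 4. Knockdown replicate 2 exceeded control replicate 4, so the groups overlapped, and the log2 difference was -1.64 (SE 0.44, limma adjusted p = 0.266). With the sum of the listed Pde10a transcripts as the gene value the sign was reversed, at 1.19 (SE 0.55, limma adjusted p = 0.442), so the direction depends on the table. Adjusted for the striatal score, the difference in the gene table was -0.94. Pde4c had 0.843 ± 0.219 FPKM in the knockdown group and 0.635 ± 0.0852 FPKM in the control group (log2 difference 0.17, limma adjusted p = 0.411). The difference of Pde4c was 0.07 when adjusted for the striatal score, 0.09 without knockdown replicate 4 and 0.34 with a pseudocount of 0.1 FPKM.

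Of 9 other effectors of cyclic nucleotides, 2 were higher by unadjusted p. Rapgef3, which encodes the exchange factor Epac1, had 4.42 ± 0.58 FPKM in the knockdown group and 3.65 ± 0.361 FPKM in the control group (log2 difference 0.22, limma adjusted p = 0.329), and the difference was 0.11 when adjusted for the striatal score. Hcn3, a hyperpolarization-activated cation channel, had 3.72 ± 1.01 FPKM in the knockdown group and 2.70 ± 0.317 FPKM in the control group (log2 difference 0.33, limma adjusted p = 0.336). The difference of Hcn3 was 0.19 without knockdown replicate 4 and 0.16 when adjusted for the striatal score. Of 12 substrates and CREB factors, 4 were higher by unadjusted p. Crtc1, a CREB coactivator of neurons, had 16.2 ± 0.694 FPKM in the knockdown group and 14.5 ± 0.698 FPKM in the control group, without overlap (log2 difference 0.14, limma adjusted p = 0.298). Crtc2, a related coactivator, had 6.82 ± 0.735 FPKM in the knockdown group and 5.83 ± 0.319 FPKM in the control group (limma adjusted p = 0.315), a direction that was reversed, at -0.12, with summed transcripts.

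**Figure D5:**
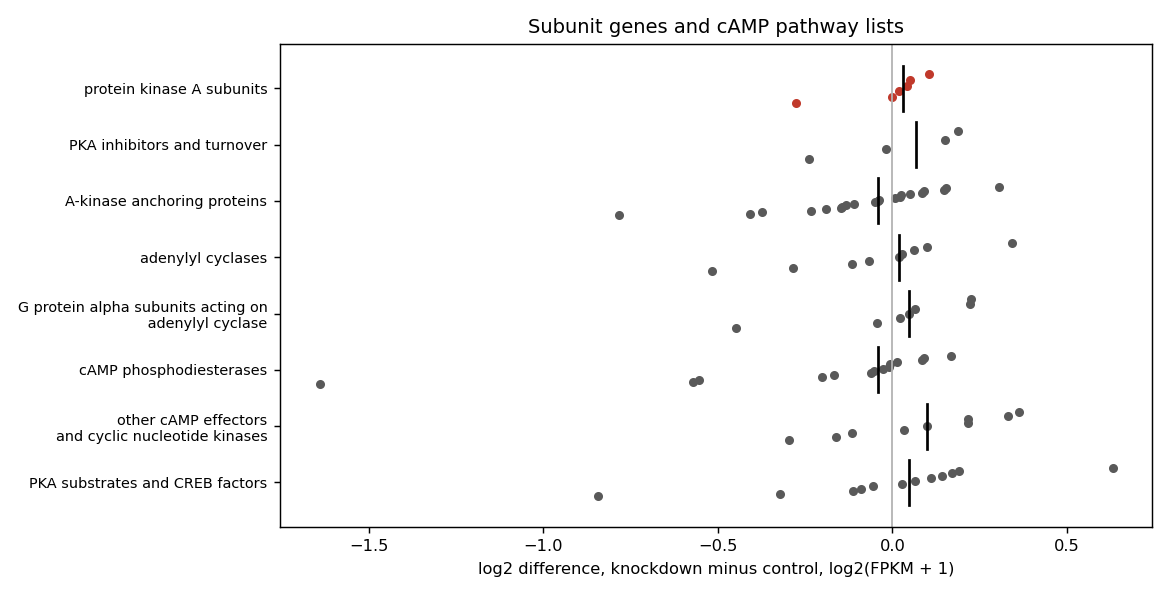
Difference of the group means of log2(FPKM + 1), knockdown minus control, for the 6 subunit genes (top row) and the 76 tested genes of 7 cyclic AMP pathway lists. Each point is a gene and vertical marks are medians. The subunit genes lie between -0.28 and 0.10, and the widest difference in the lists is that of Pde10a, at -1.64.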

How the data were processed

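The authors deposited 1 table of genes and 1 of transcripts in FPKM, per the file headers. Total RNA went into a stranded library kit, per the labels' protocols. The submitters' processing notes name StringTie, HISAT2, cutadapt and FastQC. Genome build, annotation and versions were not given in the sources used here. From the 13130 gene identifiers, 87.5% were in GENCODE M21 with identical coordinates, so positions are on GRCm38.

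FPKM plus 1 was log2-transformed and rows with a mean of at least 0.5 FPKM were fitted with limma 3.58.1 in R 4.3.3 (trend and robust empirical Bayes), knockdown against control, adjusted by Benjamini-Hochberg over all rows. Exact permutation p-values had been planned for the correlations with the striatal score and are not printed, since the genes were chosen with these values in view. The subunits, pathway lists and marker lists were chosen with earlier results of these data known. Named pathway genes are the 2 of each list with the smallest unadjusted p, and the 3 most similar genes of each subunit were named by correlation. At most 15% of low values were whole multiples of a common step (tolerance 0.1), so fragment numbers could not be recovered.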

Additional observations from a re-analysis of the deposited data

Results flagged for a closer look

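In 50 groups of 4 values (6 genes and 19 transcripts in each group of libraries), 5 had 1 library whose gap to its nearest neighbour passed Dixon's 95% critical value for the group's range. Chance gives about 1 in 20 for independent normal values, and transcripts of the same gene are not independent. The rule was not run over all genes and transcripts, so no excess is read from this count. Prkar2b-201 had 2.66 FPKM in control replicate 2, against 1.08 to 1.10 FPKM in the other control libraries, and Prkar2b-203 was listed at 0 in the same library, against 6.05 to 6.63 FPKM. Prkacb-202 had 15.0 FPKM in knockdown replicate 2, where the other 3 had 31.3 to 32.9 FPKM. Prkar1b-201 had 11.4 FPKM in knockdown replicate 4, against 13.9 to 14.3 FPKM. Prkar1a had 155 FPKM in control replicate 4, against 144.6 to 145.3 FPKM in the other control libraries.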

How the results depend on the processing

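The differences of Prkaca and Prkar2b kept their sign under all settings tried, among them another pseudocount, rescaling of the libraries, library weights, the striatal covariate and leaving out each library. Those of Prkacb, Prkar1a, Prkar1b and Prkar2a changed sign under 5, 4, 1 (the striatal covariate, -0.05) and 2 settings. Summed transcripts gave -0.22 for Prkar2a, a sum that includes Prkar2a-202 and Prkar2a-206, listed through the control group alone. No rescaling moved the median of all genes by 0.1. Leaving out 1 library gave 0 to 2 genes and 9 to 19 transcripts at an adjusted limma p of 0.05 (the most without knockdown replicate 4 for genes and without knockdown replicate 3 for transcripts), against 0 and 6 with all libraries. It gave 1199 to 2174 genes and 1421 to 2383 transcripts at an unadjusted p, against 1842 and 1863, and 9 to 17 pathway genes, against 17. The striatal covariate gave 1081 genes and 7 pathway genes, and summed transcripts gave 1494 genes and 11 pathway genes, at an unadjusted p. Correlations with the striatal score ranged from -0.93 to -0.83 for Prkar1b, -0.93 to -0.87 for Prkar2a and 0.81 to 0.97 for Prkar2b without 1 library. With summed transcripts they were -0.83 for Prkar1b and 0.12 for Prkar2a. These correlation settings were chosen after seeing the data, and the causes were not tested. With summed transcripts Pde10a and Crtc2 reversed, to 1.19 and -0.12.

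Libraries with the same replicate number did not deviate together (correlations of -0.18, -0.07, 0.20 and -0.02 for numbers 1 to 4). With the replicate number as a block, limma gave 0 genes and 4 transcripts at an adjusted p, and 1660 genes, 1646 transcripts and 19 pathway genes at an unadjusted p.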
